A study of Mus musculus with 32 samples.

Results

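The collagen genes were taken as every gene whose symbol has the form of a collagen chain name (Col, a number, a and a number) and which had at least 10 counts over the 32 tumors. This gave 44 of the 39676 genes measured: 11 fibrillar, 8 basement membrane, 9 network, 9 FACIT (collagens that sit on the surface of fibrils and have interrupted triple helices) and 7 transmembrane or other collagens. RNA was measured in whole, untreated tumors of 4 groups of 8 mice at day 10 after inoculation. AB1 mesothelioma cells (500000 per mouse) were given to female BALB/c mice and AE17 mesothelioma cells (1000000 per mouse) to female C57BL/6 mice, so that cell line and mouse strain differ together. In each model the cells were placed either in the pleural cavity (IPL) or under the skin (SC). All mice were adult and immunocompetent, and each model rests on 1 cell line. The series sets the IPL site as the invasive and the SC site as the non-invasive setting. Lungs and surrounding tissue were removed before RNA extraction.

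Collagens are secreted proteins of 3 chains wound into a triple helix. Fibrillar collagens I, III and V form the fibrils that give connective tissue its tensile strength, collagen IV forms the sheet of basement membranes, collagen VI forms beaded filaments around cells, and FACIT collagens decorate fibrils. Fibroblasts and other mesenchymal cells make most of the fibrillar collagen of a tissue, and mesothelioma cells can make collagen as well. In RNA from whole tumors, fewer cells of a type and less RNA per cell cannot be told apart.

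To show the upstream sequence of collagens that moved together and of the collagen that differed most between the models, promoter windows were taken from RefSeq (build GRCm38.p6), where 35 of the 44 genes had a window of 250 bases before to 50 after the start. The stretches below are the parts of these windows that overlap no exon, read 5′ to 3′ on the gene's strand. Capitals mark, on either strand, the letters of a CCAAT box (CCAAT), those of a GC box, written GGGCGG here, and those of a TATA box, written TATAAA. None of the 3 overlaps another in these stretches. Col1a2 (chr6:4505370-4505492, plus strand) and Col3a1 (chr1:45311288-45311537, plus strand) encode fibrillar chains, Col6a1 (chr10:76726169-76726294, minus strand) a chain of collagen VI, and Col7a1 (chr9:108953336-108953585, plus strand) the collagen of anchoring fibrils. Upstream here means before the RefSeq start. By the GENCODE M21 coordinates (chr6:4504814-4541544) the Col1a2 stretch lies inside the gene, after its first annotated base.
Col1a2: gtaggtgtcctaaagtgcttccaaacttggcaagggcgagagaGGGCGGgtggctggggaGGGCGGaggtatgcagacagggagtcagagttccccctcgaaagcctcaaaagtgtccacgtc
Col3a1: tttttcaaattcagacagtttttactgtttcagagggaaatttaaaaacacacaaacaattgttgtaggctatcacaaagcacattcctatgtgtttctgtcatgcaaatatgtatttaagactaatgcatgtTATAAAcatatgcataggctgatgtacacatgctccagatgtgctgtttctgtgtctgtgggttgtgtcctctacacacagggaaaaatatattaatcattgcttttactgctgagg
Col6a1: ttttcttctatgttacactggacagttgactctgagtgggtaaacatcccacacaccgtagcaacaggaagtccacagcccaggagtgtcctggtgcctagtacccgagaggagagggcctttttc
Col7a1: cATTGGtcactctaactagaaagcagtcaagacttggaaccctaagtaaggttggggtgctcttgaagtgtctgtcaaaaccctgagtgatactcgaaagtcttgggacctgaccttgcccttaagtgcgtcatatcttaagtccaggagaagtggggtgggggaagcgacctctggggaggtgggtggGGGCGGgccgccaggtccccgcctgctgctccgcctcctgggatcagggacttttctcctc
The Col3a1 stretch held the TATA box letters and neither of the other motifs, the Col1a2 stretch held a GC box at 2 places, the Col7a1 stretch held a CCAAT box and a GC box, and the Col6a1 stretch held none of the 3. The stretches differ in reach: relative to the start, Col1a2 covered -248 to -126 and Col6a1 -250 to -125. Those of Col3a1 and Col7a1 covered -250 to -1. The whole Col1a2 window also held a CCAAT box, and the whole Col6a1 window held none of the 3. In the whole windows, a GC box was found for 22 of the 35 collagen genes (62.9%) and for 35.9% of 27025 RefSeq windows of the same length. A CCAAT box was found for 12 (34.3%, against 37.9%) and a TATA box for 5 (14.3%, against 14.2%).

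Each library held between 15432258 and 20649645 counts on genes, at which 3 counts, the smallest number taken as detectable, are 0.145 to 0.194 CPM (a gene's counts scaled to the size of its library). This limit covers counting error only. Lane 3 carried the 8 AB1 IPL tumors and 2 AB1 SC tumors, lane 2 carried 6 AB1 SC and 5 AE17 IPL tumors, and lane 1 carried 3 AE17 IPL tumors and the 8 AE17 SC tumors. AB1 IPL tumors 3 and 4 stood apart in cartilage collagens, AB1 IPL tumor 2 in mesothelial markers, and AE17 IPL tumor 5 in fibrillar collagens, as described with the genes. Of 6 mesothelial markers 4 were measured, with a summed median of 1.15 CPM in AB1 IPL (at most 77.1 CPM) and 1.03 CPM in AB1 SC tumors, and of 10.6 CPM at the IPL and 2.98 CPM at the SC site of AE17. Summed lung epithelial markers reached at most 11.7 CPM in any group. The labels separate the mice but give no cages or days, so that the p-values below measure the spread between these tumors.

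Fibrillar collagens took the most collagen counts in every group, and their median share of all counts was highest in AB1 IPL tumors. Their median share of the collagen counts was 71.87% in AB1 IPL, 74.09% in AB1 SC, 74.16% in AE17 IPL and 71.88% in AE17 SC tumors. In AB1 IPL tumors they took 1.5% to 3.74% of all counts (median 2.25%), and in AB1 SC tumors 1.26% to 1.66% (median 1.34%). In AE17 tumors they took 1.47% to 2.67% at the IPL site (median 1.79%) and 1.65% to 2.62% at the SC site (median 1.90%). The AB1 groups overlapped at their edges and the AE17 groups over most of their range. Basement membrane collagens took 0.126% to 0.194% in AB1 IPL tumors (median 0.150%) against 0.0850% to 0.121% in AB1 SC tumors (median 0.0992%), with no overlap. FACIT collagens likewise took 0.0347% to 0.0578% in AB1 IPL tumors against 0.0262% to 0.0334% in AB1 SC tumors, and 0.117% to 0.192% over both AE17 groups, which lay above every AB1 tumor. Network collagens ranked differently: their median share was 0.628% in AB1 IPL, 0.337% in AB1 SC, 0.279% in AE17 IPL and 0.397% in AE17 SC tumors. The shares of the classes are descriptions and were not tested.

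**Figure D1:**
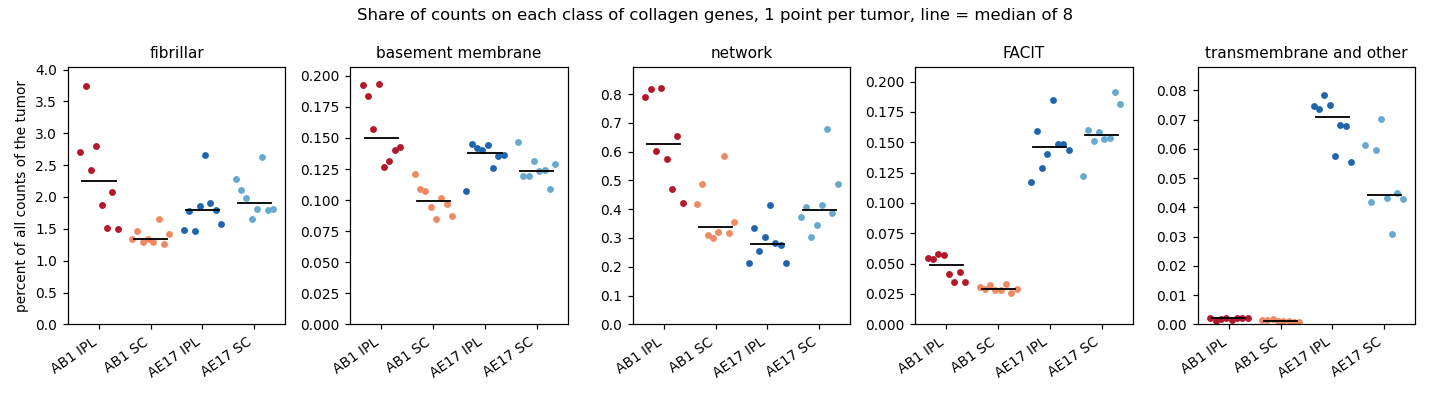
Percent of all counts of a tumor (y axis) on the genes of each collagen class in the 4 groups (x axis), with 1 point per tumor and a line at the median of 8 tumors. The AB1 IPL points do not overlap the AB1 SC points for basement membrane and FACIT collagens, and FACIT and transmembrane shares are higher in both AE17 groups than in both AB1 groups.

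Per kb of exon, Col3a1 was the most abundant collagen in all 4 groups, with a median of 1303 CPM per kb in AB1 IPL, 838 in AB1 SC, 848.7 in AE17 IPL and 923.5 in AE17 SC tumors. Below it the models ranked their collagens differently. In AB1 IPL tumors Col6a1 came next at 597 CPM per kb, followed by Col1a1 at 317 and Col1a2 at 304. In AE17 IPL tumors Col1a1 came next at 693.6 CPM per kb, followed by Col6a1 at 207 and Col1a2 at 193. These orders rest on exon length, taken as the union of all annotated exons (12426 bases for Col1a2, 6563 for Col1a1 and 4380 for Col6a1). Without the division by length, AB1 IPL medians were 3780 CPM for Col1a2, 2615 for Col6a1 and 2080 for Col1a1. In AE17 IPL tumors they were 4552 CPM for Col1a1, 2404 for Col1a2 and 908 for Col6a1. At the other end, Col2a1, Col4a3, Col9a1, Col19a1, Col25a1 and Col26a1 had group medians under 0.1 CPM per kb in every group.

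The site comparison asked which collagens differ between the invasive and the non-invasive setting. In AB1, 21 of the 34 collagen genes that passed the filter on low counts were higher in IPL than in SC tumors and 0 were lower (edgeR, adjusted p under 0.05 over all genes tested). At an unadjusted p under 0.05, 1 was lower, Col4a4, and DESeq2 and limma also called 0 lower. Of all 14645 genes tested, 12.3% were higher and 10.7% lower. The median log2 fold change was 0.71 over the 34 collagen genes and -0.00225 over all genes tested. The calls fell in every class: 8 of 10 fibrillar, 4 of 6 basement membrane, 4 of 7 network, 2 of 6 FACIT and 3 of 5 transmembrane or other collagens. The 10 collagens with too few counts to be tested were Col2a1, Col4a3, Col4a6, Col6a4, Col9a1, Col10a1, Col19a1, Col22a1, Col25a1 and Col26a1.

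Among the fibrillar collagens, the main chains of collagens I, III and V rose together in AB1 IPL tumors. Col1a1 (chr11:94936224-94953042), the alpha 1 chain of collagen I, was at 1038 to 3652 CPM (median 2080) in AB1 IPL tumors and at 817 to 1153 CPM (median 1013) in AB1 SC tumors. The IPL tumors were higher, and 7 of 8 lay above every SC tumor. The log2 fold change was 1.12 ± 0.22 (SE, edgeR adjusted p = 0.0015). Col1a2, the alpha 2 chain, rose by a log2 fold change of 0.74 ± 0.18 (edgeR adjusted p = 0.0069) from a median of 2246 CPM to a median of 3780 CPM. Col3a1 (chr1:45311538-45349706), whose product forms fibrils with collagen I in extensible tissues, was at 9576 to 24960 CPM (median 12790) in IPL and at 7647 to 10150 CPM (median 8225) in SC tumors. The groups overlapped at their edges, tumor 2 was the highest of the IPL tumors, and the log2 fold change was 0.70 ± 0.16 (edgeR adjusted p = 0.0047).

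Of the collagen V chains, which set the diameter of collagen I fibrils, Col5a1 and Col5a2 rose, and Col5a3 had a log2 fold change of 0.35 ± 0.14 and was not called (edgeR adjusted p = 0.084). Col5a1 was at 694 to 1493 CPM (median 1000) in AB1 IPL tumors and at 469 to 649 CPM (median 553) in AB1 SC tumors. The groups did not overlap, and the log2 fold change was 0.88 ± 0.15 (edgeR adjusted p = 0.00052). Col5a2 had a log2 fold change of 0.67 ± 0.14 (edgeR adjusted p = 0.0019). Col27a1, a fibrillar collagen best known from cartilage, was low in AB1 at 5.89 to 13.6 CPM in IPL and 3.75 to 5.44 CPM in SC tumors, which did not overlap, and had a log2 fold change of 1.02 ± 0.17 (edgeR adjusted p = 0.00046). Col11a1 and Col11a2, the chains of cartilage collagen XI, had log2 fold changes of 1.25 ± 0.37 and 2.19 ± 0.58 (edgeR adjusted p = 0.021 and adjusted p = 0.011). Without IPL tumors 3 and 4 they were at 0.59 and 1.03, and both calls were lost (adjusted p = 0.12 and adjusted p = 0.094).

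In the basement membrane class, the ubiquitous collagen IV chains rose. Col4a1 (chr8:11198423-11312826) was at 520 to 914 CPM (median 653) in AB1 IPL tumors and at 368 to 551 CPM (median 432) in AB1 SC tumors. Of the IPL tumors, 6 of 8 lay above every SC tumor, and the log2 fold change was 0.61 ± 0.12 (edgeR adjusted p = 0.0013). Its neighbour Col4a2 rose by a log2 fold change of 0.50 ± 0.12 (edgeR adjusted p = 0.0044). Col4a5, a chain of the collagen IV of kidney and smooth muscle basement membranes, was at 80.0 to 362 CPM (median 225) in IPL and at 61.0 to 108 CPM (median 76.4) in SC tumors. It was high in 6 IPL tumors, tumors 6 and 8 lay within the SC range, and the log2 fold change was 1.46 ± 0.26 (edgeR adjusted p = 0.0008). Col15a1, a basement membrane proteoglycan core, had a log2 fold change of 0.72 ± 0.21 (edgeR adjusted p = 0.022) and was no longer called without IPL tumor 4. Col18a1, the precursor of endostatin, and Col4a4 had log2 fold changes of 0.36 ± 0.17 and -0.60 ± 0.25 and were not called (edgeR adjusted p = 0.13 and adjusted p = 0.10).

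In the network class, the 3 main chains of collagen VI rose by like amounts. Col6a3 (chr1:90765923-90843971) was at 912 to 1531 CPM (median 1118) in AB1 IPL tumors and at 572 to 835 CPM (median 636) in AB1 SC tumors. The groups did not overlap, and the log2 fold change was 0.79 ± 0.10 (edgeR adjusted p = 5.3e-05). Col6a1 and Col6a2 had log2 fold changes of 0.74 ± 0.20 and 0.75 ± 0.20 (edgeR adjusted p = 0.011 for each), with 4 of 8 IPL tumors above every SC tumor. Col8a2, a chain of the collagen of vessel walls and the corneal endothelium, was at 0.845 to 10.5 CPM in IPL and 0.914 to 2.00 CPM in SC tumors, with a log2 fold change of 1.75 ± 0.41 (edgeR adjusted p = 0.0052). Col8a1, its partner chain, had a log2 fold change of 0.34 ± 0.14 and was not called (edgeR adjusted p = 0.098). Col6a5 varied widely among tumors of a group, from 2.75 to 51.1 CPM in IPL and from 2.27 to 109 CPM in SC tumors, and was not called at -1.44 ± 0.77 (edgeR adjusted p = 0.20).

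Of the FACIT collagens, Col14a1 (chr15:55307750-55520803), which binds fibrils in skin and tendon, gave the smallest adjusted p of any collagen in AB1. It was at 49.0 to 108 CPM (median 63.2) in IPL and at 19.5 to 38.1 CPM (median 22.9) in SC tumors. The groups did not overlap, and the log2 fold change was 1.51 ± 0.18 (edgeR adjusted p = 2.6e-05). Col16a1 was at 232 to 354 CPM in IPL and at 163 to 206 CPM in SC tumors, again without overlap, and had a log2 fold change of 0.60 ± 0.09 (edgeR adjusted p = 0.00025). Col12a1 and Col9a2 had log2 fold changes of 0.36 ± 0.18 and 1.34 ± 0.56 and were not called (edgeR adjusted p = 0.17 and adjusted p = 0.095). In the last class, Col7a1 rose from a median of 4.07 to 9.73 CPM (log2 fold change 1.21 ± 0.27, edgeR adjusted p = 0.0035), and the transmembrane collagens Col13a1 and Col17a1 had log2 fold changes of 1.48 ± 0.39 and 0.69 ± 0.20 (edgeR adjusted p = 0.01 and adjusted p = 0.019) at levels of at most 2.93 CPM. Col23a1, another transmembrane collagen, had a log2 fold change of 0.03 ± 0.28 (edgeR adjusted p = 0.96). Without IPL tumors 3 and 4, Col13a1 (1.01) and Col17a1 (0.54) were not called either (edgeR adjusted p = 0.057 and adjusted p = 0.091), while Col18a1 (0.45), Col8a1 (0.35) and Col9a3 (-0.46) were (edgeR adjusted p = 0.0499, adjusted p = 0.036 and adjusted p = 0.033). This gave 20 collagens in all, 19 higher and 1 lower, where 9.11% of all genes were higher and 12.2% lower.

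**Figure D2:**
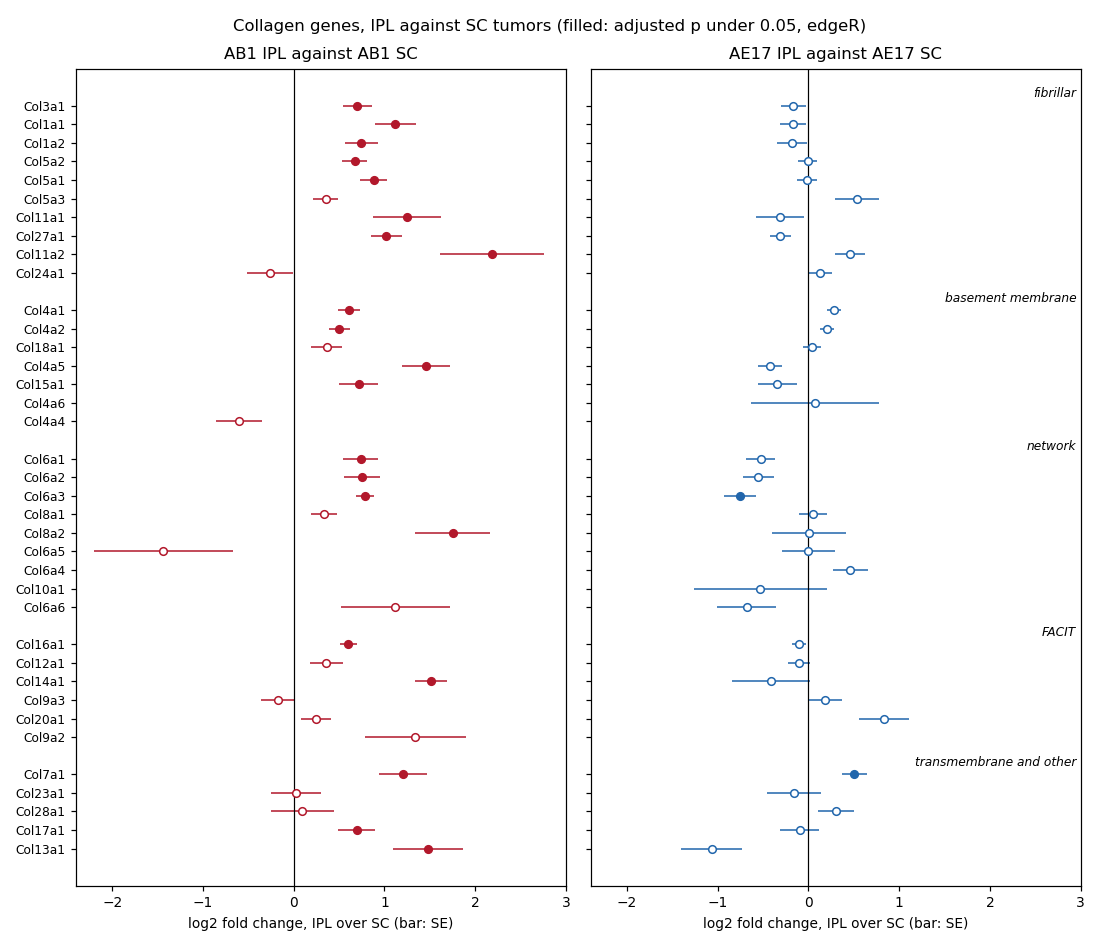
Log2 fold change of IPL over SC tumors (x axis) with its SE as a bar for each tested collagen gene (y axis, ordered by class and level), in AB1 on the left and AE17 on the right, with filled points for genes with an edgeR adjusted p under 0.05. In AB1, 21 filled points lie right of 0 and none left of it, while AE17 has 1 filled point on each side.

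Sequencing lane and other cell types moved with these differences. With lane as a covariate all 21 collagens kept their direction (median log2 fold change 0.74, against 0.79 without it), 12 had an unadjusted p under 0.05 and only Col14a1 was called (1.83, edgeR adjusted p = 0.0046). Within lane 3, with 8 IPL against 2 SC tumors, all 21 again kept their direction (median 0.69), 8 had an unadjusted p under 0.05 and only Col14a1 was called. Over all genes the lane covariate left 107 higher (0.731%) and 279 lower (1.91%), against 1803 and 1571 without it, and within lane 3 the shares were 0.0625% and 0.994%. Of the fibroblast markers, 4 of 6 were higher in AB1 IPL tumors (Pi16, Dpt, Fap and Mfap5, with log2 fold changes of 0.67 to 1.13) and their summed level was 1095 to 2350 CPM in IPL against 1132 to 1627 CPM in SC tumors. Of the skeletal muscle markers, 7 of 8 were higher, with a summed level of 102 to 4124 CPM against 52.5 to 432 CPM, and 4 of 5 leukocyte markers were lower (455 to 870 CPM against 883 to 1447 CPM). Of the 4 mural cell markers tested Cspg4 and Des were higher (1.67 and 3.29), Notch3 was at 0.68 and Rgs5 at -0.31 without being called, and Des, which skeletal and cardiac muscle also express, made up most of their sum in 7 of 8 AB1 IPL tumors (summed median 548 against 92.7 CPM; Des at 22.6 to 876 CPM in IPL and 3.89 to 95.9 CPM in SC tumors). Blood endothelial markers (3 of 6 higher, 186 against 147 CPM), adipocyte markers (2 of 4 higher, 65.9 against 32.8 CPM), tendon markers (1 of 1 higher, 316 against 70.5 CPM), cartilage markers (1 of 2 higher, Comp, 12.4 against 7.43 CPM), epidermal markers (1 of 2 higher, Trp63, 3.84 against 2.25 CPM) and cardiac markers (2 of 3 higher and 1 lower, 42.6 against 7.93 CPM) moved as well. With scores of muscle, heart, fat and lung markers as covariates, 19 of the 21 kept their direction (median 0.43), and Col14a1 and Col6a3 were called, in a fit that left 79 of all genes higher (0.539%) and 211 lower (1.44%). The part of fibroblast, mural, endothelial, tendon, cartilage, epidermal and leukocyte markers in the collagen differences was not tested.

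Collagens of cartilage were read in a few AB1 IPL tumors. Col2a1 (chr15:97975602-98004695), the main collagen of cartilage, was at 37.1 CPM in tumor 3, 47.5 CPM in tumor 4 and 2.63 CPM in tumor 1, and at no more than 0.328 CPM in the other 5 AB1 IPL tumors. It had at most 4 counts in each of the other 24 libraries. Col9a1, a FACIT of cartilage, had 88 counts in tumor 3 and 44 in tumor 4, and at most 6 in any other library. Col10a1, the collagen of hypertrophic cartilage, was at 16.4 CPM in tumor 3 and 20.8 CPM in tumor 4, and between 0.162 and 1.27 CPM in the other AB1 IPL tumors. Its exons overlap Nt5dc1 on the opposite strand, and reads from the overlap cannot be assigned. The same 2 tumors led in all 3 genes. Col11a2 was at 46.4, 34.6, 19 and 9.96 CPM in tumors 3, 4, 5 and 1, and at 2.26 to 4.54 CPM in the other 4 AB1 IPL tumors, close to the 2.50 to 4.46 CPM of AB1 SC tumors.

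Of the 6 bone markers, 5 were measured, and they did not all vary with these collagens. Bglap (osteocalcin) had 1163 counts in tumor 3, 555 in tumor 4, 410 in tumor 5 and 174 in tumor 1, and at most 6 in the other 4 AB1 IPL tumors. Ibsp (bone sialoprotein) had 1135, 367, 335 and 246 counts in the same tumors, at most 58 in the others and 0 in every AB1 SC tumor. In tumor 5, where both were high, Col2a1 had 4, Col10a1 3 and Col9a1 0 counts. Dmp1 was highest in tumor 8, with 407 counts against 76 in tumor 3 and 58 in tumor 4, and Phex was lowest in tumor 4 (40 counts). Tumor 4 was also the lowest of the group for genes that are not bone markers (Ptprc 678, Ddr2 2601 and Itgb1 12120 counts). It was not low for others, such as Laptm5 (5303) and Bgn (27276). Of the 5 cartilage markers measured, Acan (107 and 246 counts) and Matn3 (27 and 25 counts) were highest in tumors 3 and 4, Comp had 254, 351 and 270 counts in tumors 3, 4 and 1, Matn1 had at most 6 counts in any AB1 IPL tumor, and Sox9 had 108 to 168 counts in all 8. Their sum was at 26.8, 40.0 and 23.1 CPM in tumors 3, 4 and 1 and at 8.99 to 13.2 CPM in the other 5, against 5.61 to 11.4 CPM in AB1 SC tumors. The summed bone markers were at 187, 84.1, 73.3, 41.0 and 29.8 CPM in tumors 3, 4, 5, 1 and 8 and at 8.24 to 13.1 CPM in the other 3, against 5.90 to 10.6 CPM in AB1 SC tumors. Their part in the collagen values was not tested, and Col2a1, Col9a1 and Col10a1 had too few counts in most tumors to be tested in this comparison.

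Col22a1, the collagen of the junction of muscle and tendon, was also highest in tumors 3 and 4. It was at 14.1, 13.1, 8.23, 5.65 and 4.49 CPM in AB1 IPL tumors 3, 4, 1, 5 and 7, at 0.0539 to 0.740 CPM in the other 3, and at no more than 0.215 CPM in AB1 SC tumors. The summed skeletal muscle markers were at 4046, 4124, 2708, 1343 and 2531 CPM in the former 5 tumors and at 102 to 1038 CPM in the other 3. Tumor 2, with the highest Col3a1 level, had the lowest Col22a1 and skeletal muscle values of the group. It also had the highest share of counts on all collagens (4.79%), the highest fibroblast sum (2350 CPM, next 1768 CPM) and a mesothelial sum of 77.1 CPM, against 0.381 to 3.28 CPM in the other 7. Their part was not tested. Within AB1 the gene was not tested.

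**Figure D3:**
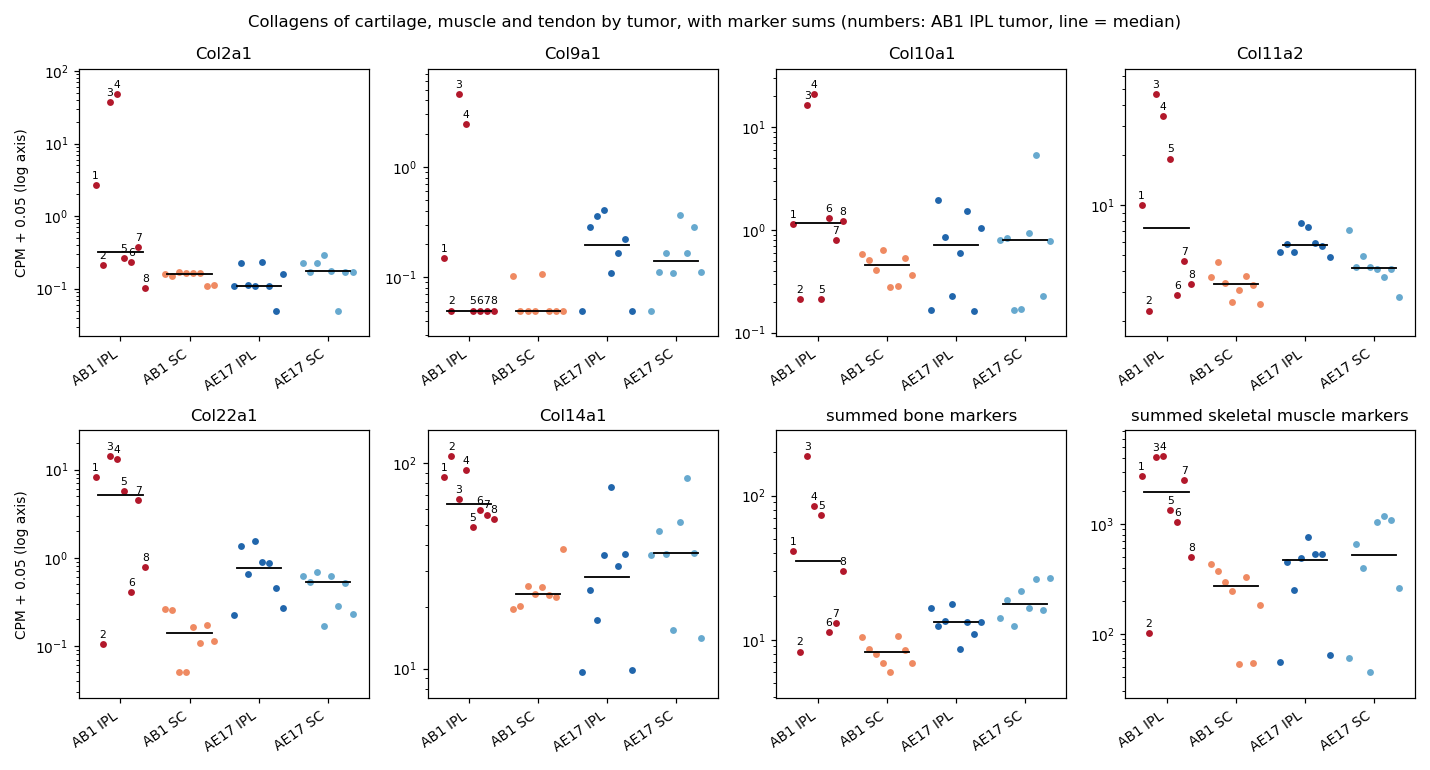
CPM plus 0.05 on a log axis (y axis) of 6 collagens and of the summed bone and skeletal muscle markers in the 4 groups (x axis), 1 point per tumor, with the number of each AB1 IPL tumor and a line at the group median. Tumors 3 and 4 stand above the rest for Col2a1, Col9a1, Col10a1 and Col11a2, while all 8 AB1 IPL tumors stand above the AB1 SC tumors for Col14a1.

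In AE17, the same comparison of sites gave 2 calls among 35 collagens. Over all 14668 genes, 2.6% were higher and 3.13% lower in AE17 IPL tumors, and the collagens' median log2 fold change was -0.09. Col6a3 was at 760 to 1297 CPM (median 912) in AE17 IPL tumors and at 1063 to 3079 CPM (median 1514) in AE17 SC tumors. The IPL tumors were lower, 6 of 8 lay below every SC tumor, and the log2 fold change was -0.75 ± 0.18 (edgeR adjusted p = 0.026). Col7a1 (chr9:108953586-108984875) was at 551 to 789 CPM (median 700) in IPL and at 309 to 691 CPM (median 428) in SC tumors. The IPL tumors were higher, 4 of 8 lay above every SC tumor, and the log2 fold change was 0.51 ± 0.14 (edgeR adjusted p = 0.047).

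The other collagens of AE17 were not called. Col1a1, Col1a2 and Col3a1 had log2 fold changes of -0.17 ± 0.14, -0.18 ± 0.16 and -0.17 ± 0.14 (edgeR adjusted p = 0.49, adjusted p = 0.52 and adjusted p = 0.47), and Col5a1 and Col5a2 of -0.02 ± 0.11 and -0.01 ± 0.11. The other fibrillar chains tested were at 0.54 ± 0.24 for Col5a3, 0.46 ± 0.16 for Col11a2, 0.13 ± 0.13 for Col24a1, -0.31 ± 0.11 for Col27a1 and -0.31 ± 0.26 for Col11a1 (edgeR adjusted p = 0.17, adjusted p = 0.092, adjusted p = 0.55, adjusted p = 0.11 and adjusted p = 0.48). Col1a1 was at 7667 CPM in IPL tumor 5 and at 3509 to 4692 CPM in the other 7. The other main chains of collagen VI had estimates in the direction of Col6a3, at -0.53 ± 0.16 for Col6a1 and -0.55 ± 0.17 for Col6a2 (edgeR adjusted p = 0.060 and adjusted p = 0.066). Col4a1, at 0.28 ± 0.08, just missed the threshold (edgeR adjusted p = 0.052).

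The number of calls in AE17 changed with the tumors included. Without IPL tumor 7 there were 0, without IPL tumor 5 there were 6, without SC tumor 3 there were 7, and without SC tumor 1 there were 11, of which 6 were higher and 5 lower. It was 1 without IPL tumors 2, 3 or 6 or SC tumors 2, 5, 6, 7 or 8. Over all genes, 131 were higher and 190 lower of 14764 without IPL tumor 7, and 570 and 693 of 14749 without IPL tumor 5. There were 746 and 800 of 14781 without SC tumor 3, and 1026 and 1040 of 14776 without SC tumor 1. The Col7a1 call was lost in 11 of the 16 fits that left out 1 tumor, and the Col6a3 call in 1. With lane as a covariate neither was called, at -0.96 for Col6a3 and 0.40 for Col7a1, in a fit that left 0 of all 14668 genes higher and 1 lower. DESeq2 called 8 collagens, 3 higher and 5 lower, where it called 5.61% of all genes higher and 5.71% lower. The 13 called by limma were 6 higher and 7 lower, where 14.1% of all genes were higher and 12.9% lower.

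Markers of other cell types moved in AE17 too. Of the fibroblast markers 1 of 6 was lower at the IPL site (Cd34, -0.85 ± 0.17, edgeR adjusted p = 0.014), with a summed level of 565 to 835 CPM in IPL and 689 to 1479 CPM in SC tumors. Of 4 mural cell markers tested 1 was lower (Cspg4, -2.23 ± 0.48, edgeR adjusted p = 0.019), and of 3 cardiac markers 2 were higher (summed median 31.8 against 13.7 CPM). Of 6 blood endothelial markers 1 was higher (Tie1, 0.41 ± 0.11, edgeR adjusted p = 0.037), and of 2 bone markers tested 1 was lower (Phex, -0.76 ± 0.19, edgeR adjusted p = 0.030). With scores of muscle, heart, fat and lung markers as covariates, Col6a3 was at -0.74 and Col7a1 at 0.35, and neither was called (edgeR adjusted p = 0.22 and adjusted p = 0.33). That fit left 3 of all 14668 genes higher and 12 lower. The part of fibroblast, mural cell, endothelial and bone markers was not tested.

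Whether the site difference itself differed between the models was tested in 1 fit of all 32 tumors. For 20 of 38 collagens the difference of IPL over SC was larger in AB1 than in AE17, and for 0 it was smaller (edgeR, adjusted p under 0.05, with 0 smaller also at an unadjusted p under 0.05 and 0 called by DESeq2 or limma). Of the 38 estimates, 8 were negative. Of all 15681 genes tested, it was larger in AB1 for 11.9% and smaller for 8.62%. The calls comprised 8 of 10 fibrillar, 2 of 7 basement membrane, 5 of 9 network, 4 of 7 FACIT and 1 of 5 transmembrane or other collagens.

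The 3 main chains of collagen VI were higher at the IPL site in AB1 and had estimates below 0 there in AE17. The difference between the site effects was 1.56 ± 0.21 on the log2 scale for Col6a3 (edgeR adjusted p = 2.9e-05), 1.28 ± 0.26 for Col6a1 and 1.32 ± 0.27 for Col6a2. It was 1.31 ± 0.27 for Col1a1, 0.94 ± 0.25 for Col1a2, 0.89 ± 0.22 for Col3a1 and 0.92 ± 0.19 for Col5a1. For the minor chains Col6a5, Col6a4 and Col6a6 it was -1.42 ± 0.84, -0.34 ± 0.44 and 1.81 ± 0.73 and was not called (edgeR adjusted p = 0.25, adjusted p = 0.63 and adjusted p = 0.076). It was 1.90 ± 0.30 for Col4a5, 1.94 ± 0.48 for Col14a1 and 2.56 ± 0.52 for Col13a1. For Col4a1 and Col4a2 it was 0.35 ± 0.14 and 0.32 ± 0.14 and was not called (edgeR adjusted p = 0.085 and adjusted p = 0.11). The values for Col22a1 (4.95 ± 1.08), Col10a1 (4.19 ± 1.24) and Col9a2 (3.11 ± 0.85) rested on groups with few counts, such as 0 to 4 counts of Col22a1 in AB1 SC tumors. With lane as a covariate all 20 kept their direction, 15 had an unadjusted p under 0.05, and Col6a3 and Col27a1 were called, where 0.376% of all genes were larger and 0.37% smaller in AB1. The median over the 38 collagens was 0.86 with lane and 0.85 without it. Without AB1 IPL tumors 3 and 4, 17 were called, where 11.2% of all genes were larger and 7.98% smaller in AB1. Col10a1 then fell to 1.47, Col8a2 to 1.30, Col11a1 to 0.96 and Col11a2 to 0.63, and none of these was called (edgeR adjusted p = 0.29, adjusted p = 0.14, adjusted p = 0.078 and adjusted p = 0.33), while Col7a1 was now called at 0.84 (adjusted p = 0.049).

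Between the models, AE17 tumors expressed several collagens that AB1 tumors hardly expressed. These comparisons set 1 cell line in 1 mouse strain against another, so that the contributions of line and strain cannot be told apart. At the SC site, 4 of 35 collagens were higher in AB1 and 23 were lower (edgeR), where 31.2% of all 14718 genes were higher and 32.5% lower. At the IPL site, 16 of 37 were higher in AB1 and 13 were lower, where 30.5% of all 14886 genes were higher and 28.6% lower. Of the fibrillar collagens, 8 of 10 were lower and 0 higher in AB1 at the SC site, and 4 were lower and 3 higher at the IPL site.

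Col7a1, which anchors basement membranes to the stroma beneath, had the largest difference of the collagens tested at each site. It was at 4.93 to 15 CPM in AB1 IPL and at 2.06 to 6.46 CPM in AB1 SC tumors, against 551 to 789 CPM in AE17 IPL and 309 to 691 CPM in AE17 SC tumors. Every AE17 tumor lay far above every AB1 tumor, and the log2 fold change of AB1 over AE17 was -6.16 ± 0.24 at the IPL site (edgeR adjusted p = 1.4e-12) and -6.90 ± 0.25 at the SC site (edgeR adjusted p = 3.1e-13). Col6a4 was at 16 to 40.7 CPM in AE17 IPL tumors and at 0.109 to 1.19 CPM in AB1 IPL tumors (-5.79 ± 0.38), and Col4a6 had 10 to 113 counts in AE17 IPL tumors and 0 to 2 in AB1 IPL tumors. Col6a4 had 2 to 22 counts in AB1 IPL tumors and too few to be tested within AB1. The size of its difference therefore rests on few counts.

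Col12a1, a FACIT of tension-bearing tissue, was at 843 to 1413 CPM in AE17 IPL and 781 to 1487 CPM in AE17 SC tumors, against 56.8 to 162 CPM in AB1 IPL and 60.0 to 90.3 CPM in AB1 SC tumors. The models did not overlap, with log2 fold changes of -3.53 ± 0.20 and -4.03 ± 0.14 at the IPL and SC sites. Col27a1 (-3.23 ± 0.19 and -4.61 ± 0.11), Col8a2 (-2.70 ± 0.50 and -4.49 ± 0.35) and Col11a1 (-2.22 ± 0.42 and -3.82 ± 0.22) were lower in AB1 at both sites. Col18a1 was also lower, at -1.74 ± 0.16 and -2.11 ± 0.11. The 4 collagens that were higher in AB1 at the SC site, Col20a1, Col4a4, Col9a3 and Col4a2, were also higher at the IPL site. Col20a1 was at 4.58 to 9.50 CPM in AB1 IPL and 4.35 to 7.50 CPM in AB1 SC tumors, against 0.930 to 2.22 CPM and 0.356 to 1.59 CPM in AE17 tumors, without overlap (2.16 ± 0.21 at the IPL and 2.70 ± 0.23 at the SC site). Col4a4 and Col9a3 were higher in AB1 by 0.73 ± 0.26 and 0.82 ± 0.19 at the IPL site and by 1.32 ± 0.26 and 1.13 ± 0.18 at the SC site.

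**Figure D4:**
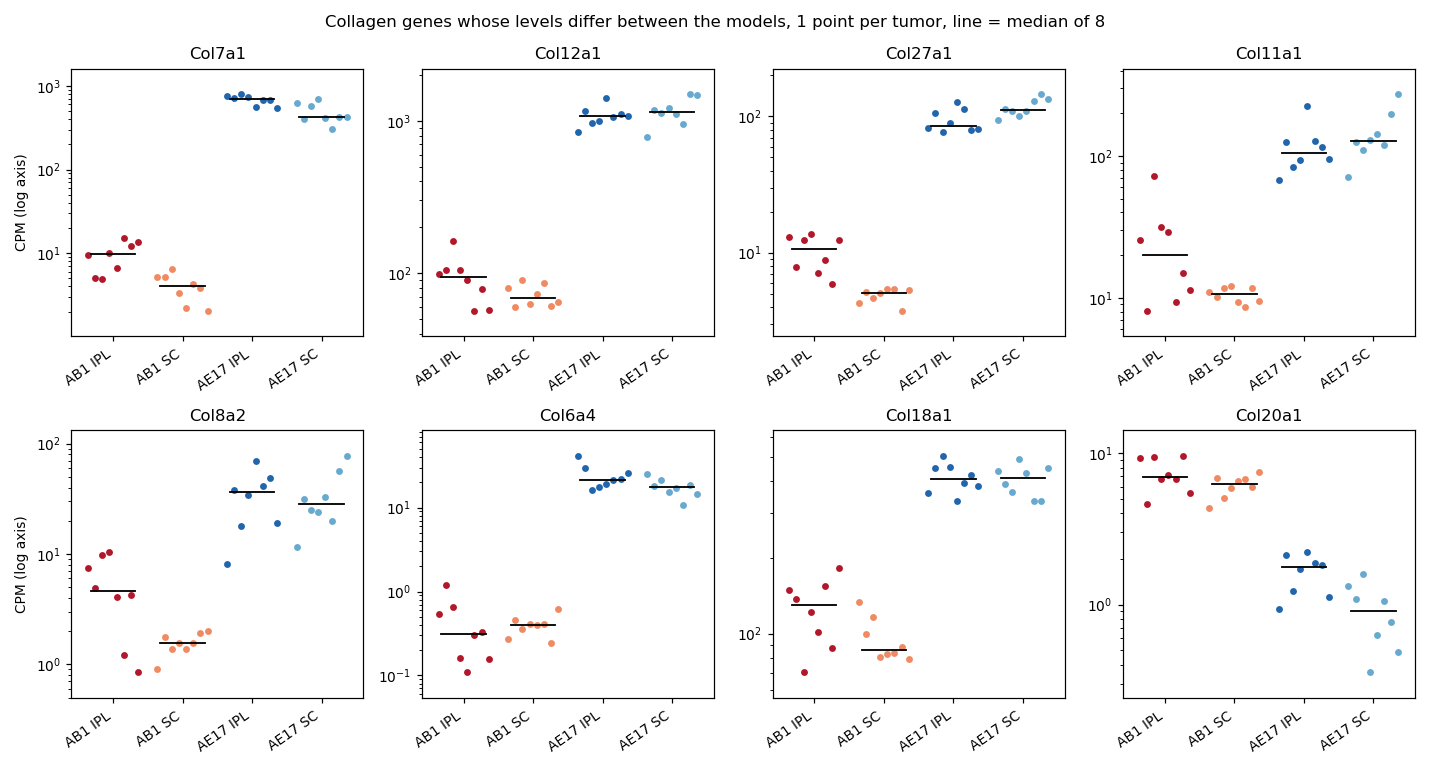
CPM on a log axis (y axis) of 8 collagen genes in the 4 groups (x axis), 1 point per tumor with a line at the median of 8 tumors. For Col7a1, Col12a1, Col27a1, Col6a4 and Col18a1 every AE17 point lies above every AB1 point, and for Col20a1 every AB1 point lies above every AE17 point.

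For some collagens the difference between the models depended on the site. Col13a1 was higher in AB1 at the IPL site and lower in AB1 at the SC site, with log2 fold changes of 1.67 ± 0.44 and -0.92 ± 0.26 (edgeR adjusted p = 0.0036 and adjusted p = 0.0046). Col1a2, Col4a5, Col11a2 and Col14a1 were called in the same directions, but each of them lost its call at the IPL site, the SC site or both in 7 to 12 of the 16 fits that left out 1 tumor. Col6a1 was at 1744 to 3906 CPM (median 2615) in AB1 IPL tumors and at 644 to 1352 CPM (median 908) in AE17 IPL tumors. The groups did not overlap, and the log2 fold change was 1.59 ± 0.18. At the SC site it was 0.28 ± 0.18 and not called (edgeR adjusted p = 0.19). Col3a1 had 0.74 ± 0.17 at the IPL site (edgeR adjusted p = 0.0014) and -0.17 ± 0.12 at the SC site (edgeR adjusted p = 0.23). Col1a1 was lower in AB1 at both sites, by a log2 fold change of -1.07 ± 0.25 at the IPL and -2.4 ± 0.10 at the SC site. Lane and model coincide within each site. In the fit of all 32 tumors with lane as a covariate, the collagens called were 3 higher and 15 lower at the SC site (15.4% and 18.2% of all genes) and 6 higher and 10 lower at the IPL site (16.5% and 15.5% of all genes).

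The ratio between chains that are assembled into 1 protein varied little for some pairs and more for others. Per kb of exon, Col6a1 over Col6a2 was 2.21 to 2.70 over all 32 tumors, a 1.22-fold range, while the levels of the genes ranged 6.07-fold and 6.43-fold. The genes lie 85161 bases apart on chromosome 10 in the same orientation. Col4a1 over Col4a2, which lie head to head on chromosome 8 and overlap by 22 bases, was 1.19 to 1.60 (1.34-fold, with levels that ranged 2.48-fold and 2.72-fold). Whether reads were counted by strand is not given in the sources used here, so that reads from the overlap cannot be assigned. Col1a1 over Col1a2 had medians of 1.07 in AB1 IPL and 0.826 in AB1 SC tumors against 3.47 in AE17 IPL and 3.42 in AE17 SC tumors, and its ranges of 0.786 to 1.26 in AB1 and 2.92 to 4.10 in AE17 did not overlap. Collagen I protein is mostly assembled from 2 alpha 1 chains and 1 alpha 2 chain. The RNA ratios cannot be read against this, since they depend on the exon lengths used (6563 bases for Col1a1, 12426 for Col1a2). Without the division by length, medians of Col1a1 and Col1a2 were 2080 and 3780 CPM in AB1 IPL tumors. In AE17 IPL tumors they were 4552 and 2404 CPM. Col6a3 over Col6a1 likewise had medians of 0.154 and 0.160 in AB1 and of 0.398 and 0.447 in AE17 tumors. Within AB1 SC tumors it ranged 2.22-fold, while Col6a3 itself ranged 1.46-fold. Col5a1 over Col5a2 ranged 1.26-fold to 1.56-fold within a group, and in AE17 SC tumors its 1.56-fold range was wider than the 1.44-fold range of Col5a2. These ratios are descriptions, since exon length stands in for the sequence that reads can map to.

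**Figure D5:**
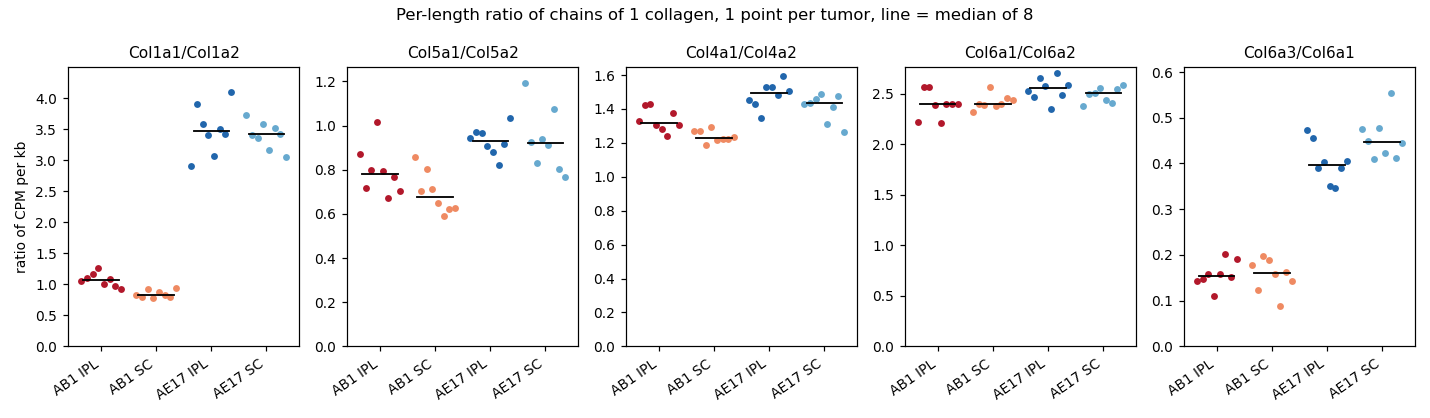
Ratio of the CPM per kb of exon of 2 chains of 1 collagen (y axis) in the 4 groups (x axis), 1 point per tumor with a line at the median of 8 tumors. Col6a1/Col6a2 lies between 2.21 and 2.70 in all tumors, while Col1a1/Col1a2 and Col6a3/Col6a1 are higher in every AE17 tumor than in every AB1 tumor.

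Genes that make, cut, link and sense collagen were taken from a list of 55, of which 44 were measured with at least 10 counts, Mep1a had 1 count in all and 10 were not analysed here. These 10 were Lox, Bmp1, Tll2, Mep1b, Dcn, Lum, Ogn, Kera, Itga1 and Itga2, so the counts below leave them out. In AB1, 14 of 41 tested were higher at the IPL site and 3 were lower, with a median log2 fold change of 0.17, against 12.3% and 10.7% of all genes. In AE17, 1 of 42 was higher and 0 were lower (7 and 5 at an unadjusted p under 0.05), against 2.6% and 3.13% of all genes. Serpinh1, the collagen chaperone HSP47, was that gene (0.35 ± 0.09, edgeR adjusted p = 0.040), and it was also higher in AB1, at 1050 to 1685 CPM in IPL and 726 to 1073 CPM in SC tumors (0.61 ± 0.11, edgeR adjusted p = 0.00082). Of the 7 folding and export genes, 5 rose in AB1, among them Sparc (0.64 ± 0.14) and the prolyl isomerase Fkbp10 (0.40 ± 0.10). Of the 15 genes of hydroxylation and glycosylation, 5 rose: the prolyl 3-hydroxylases P3h1 and P3h3, their partner P3h4, the prolyl 4-hydroxylase chain P4ha2, and the galactosyltransferase Colgalt2 (2.47 ± 0.40, from a median of 0.183 to 0.799 CPM).

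Of 7 collagen receptors tested in AB1, 3 were higher and 1 was lower, and Ddr2 (-0.08), Itgb1 (0.0041) and Itga10 (0.36) were not called. Itga11, the integrin chain of fibroblasts for fibrillar collagen (1.96 ± 0.43), Ddr1 (0.68 ± 0.11) and the endocytic receptor Mrc2 (0.78 ± 0.13) were higher in AB1 IPL tumors, and the leukocyte receptor Lair1 was lower (-0.60 ± 0.14). Loxl1, a crosslinking enzyme, was higher (0.60 ± 0.17) and Loxl3 lower (-0.51 ± 0.11), and Pcolce2, an enhancer of propeptide removal, was lower (-1.51 ± 0.28). Between the models at the SC site, 29 of 42 of these genes were lower and 2 higher in AB1, against 32.5% and 31.2% of all genes. Loxl2 was at 234 to 676 CPM in AE17 SC and 11.6 to 24 CPM in AB1 SC tumors (-4.69 ± 0.23), and the 6 genes of propeptide removal that were tested were lower in AB1.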

How the data were processed

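The authors made 50 bp single-end reads from polyA RNA, mapped them with HISAT2 2.0.4 and deposited read counts per gene from summarizeOverlaps, not normalized, with 1 column per mouse. Their methods name the genome build as mm11, and counting by strand is not given in the sources used here. Coordinates and exon lengths were taken from GENCODE M21 on GRCm38, which all 44 collagen genes matched by identifier without the version and 34 with it. Exons of 13 collagen genes overlap another gene.

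CPM values were scaled with TMM factors over the 32 tumors and divided by exon length to compare genes. Tests were two-sided quasi-likelihood F tests in edgeR 4.0.16 (R 4.3.3) on the counts of the groups compared, after filterByExpr and TMM, with Benjamini-Hochberg adjustment over all genes tested and a threshold of 0.05. The interaction was fitted on all 32 tumors. Alternatives used DESeq2 1.42.0, limma 3.58.1 (voom with sample quality weights), other scalings and filters, the sequencing lane, tissue marker scores, the replicate number, and each tumor left out in turn. Leaving out AB1 IPL tumors 3 and 4, and lane in the comparisons between models, were chosen after seeing the data. In simulated data for the AB1 comparison (14542 genes), edgeR recovered 72.9% of genes changed by 1 and 96.2% of genes changed by 2 on the log2 scale. The counts of every pair of tumors in a group differed by more than counting error.

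The collagen genes, their classes and all gene lists were chosen with earlier results of these data known. Values were given for collagens called in a site comparison or the interaction, for the 2 most abundant of each class, and for at most the 3 largest differences each way between models. Col5a3, Col6a5, Col6a6, Col8a1, Col18a1, Col24a1, Col2a1, Col9a1 and the chain ratios were chosen after their values were seen.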

Additional observations from a re-analysis of the deposited data

Results flagged for a closer look

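In groups of 8 tumors, a tumor was singled out where its gap to the nearest other tumor exceeded Dixon's critical share of the range of the group. This held for 14 of 176 combinations of a group with 1 of the 38 tested genes or 1 of 6 shares of counts (the 5 classes and all collagens), and chance gives about 1 in 20. AE17 IPL tumor 5 accounted for 5 of them. It was high for Col1a1 (7667 CPM against 3509 to 4692 CPM in the other 7, gap ratio 0.628), Col1a2 (4715 CPM against 1876 to 2571 CPM, 0.658), the fibrillar share (2.67% against 1.47% to 1.91%, 0.633) and the share of all collagens (3.47% against 1.99% to 2.54%, 0.632), and low for Col4a5 (49.3 CPM against 66.6 to 80.0 CPM, 0.623). Its summed adipocyte markers were at 898 CPM (group median 33.3 CPM) and its summed cardiac markers at 197 CPM (next highest 53.7 CPM), and its fibroblast (835 CPM), skeletal muscle (757 CPM), mural cell (315 CPM), blood endothelial (293 CPM), cartilage (57.6 CPM) and Schwann cell (46.5 CPM) sums were also the highest of its group. The part of these cell types in the collagen values was not tested.

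AE17 SC tumor 6 was high for Col4a5 (153 CPM against 72.6 to 99.2 CPM, gap ratio 0.582), Col4a6 (8.56 CPM against 0.305 to 1.00 CPM, 0.677) and Col10a1 (5.34 CPM against 0.118 to 0.881 CPM, 0.539). Its fibroblast (1479 CPM, next highest 956 CPM), skeletal muscle (1180 CPM), mural cell (447 CPM), cartilage (75.1 CPM) and epidermal (27.2 CPM) marker sums were the highest of its group, and their part was not tested. AB1 IPL tumor 2 was high for Col6a6 (14.4 CPM against 0.924 to 3.09 CPM, 0.573), and had the highest fibroblast, mesothelial and leukocyte marker sums of its group. The other 5 were Col24a1 in AE17 IPL tumor 3 (7.16 CPM, 0.632), Col4a6 in AE17 IPL tumor 1 (6.57 CPM, 0.629), Col4a1 in AE17 SC tumor 1 (530 CPM, 0.606), Col14a1 in AB1 SC tumor 8 (38.1 CPM, 0.618) and Col5a2 in AB1 SC tumor 6 (1208 CPM, 0.637). AB1 SC tumor 6 also had the highest fibroblast (1627 CPM, next 1306 CPM) and tendon (206 CPM, next 124 CPM) sums of its group, AB1 SC tumor 8 the highest leukocyte sum (1447 CPM, next 1351 CPM), and AE17 SC tumor 1 the highest mesothelial sum (10.6 CPM, next 4.00 CPM). That mesothelial sum came mostly from Krt19 (176 counts, against 5 of Wt1, 2 of Lrrn4 and 1 of Upk3b). The part of these marker sums was not tested.

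The site difference of 20 collagens differed between AB1 and AE17 in the test of the interaction (edgeR, adjusted p under 0.05), in each case with the larger difference of IPL over SC in AB1. On the log2 scale the differences were 4.95 for Col22a1, 4.19 for Col10a1, 3.11 for Col9a2, 2.56 for Col13a1, 1.94 for Col14a1, 1.90 for Col4a5, 1.77 for Col8a2, 1.74 for Col11a2, 1.58 for Col11a1 and 1.56 for Col6a3. They were 1.35 for Col27a1, 1.32 for Col6a2, 1.31 for Col1a1, 1.28 for Col6a1, 1.08 for Col15a1, 0.94 for Col1a2, 0.92 for Col5a1, 0.89 for Col3a1, 0.72 for Col16a1 and 0.70 for Col5a2. The values of Col22a1, Col10a1 and Col9a2 rested on groups with few counts, such as 0 to 4 counts of Col22a1 in AB1 SC tumors. Col22a1 and Col10a1 had too few counts to be tested within AB1. Without AB1 IPL tumors 3 and 4, Col10a1 (1.47), Col8a2 (1.30), Col11a1 (0.96) and Col11a2 (0.63) were no longer called. Lane, which overlaps with site in both models, left 2 of the 20 called when it was added to the fit, with a median over the 38 collagens of 0.86 against 0.85.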

How the results depend on the processing

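In AB1 the number of collagens called stayed within 1.5 times 21 under other scalings, filters and tools (20 to 27) and with each tumor left out (21 to 24). It fell to 1 with lane as a covariate, to 1 within lane 3 and to 2 with tissue marker scores, under which Col11a1 and Col11a2 reversed to -0.18 and -0.34. In AE17, against 2, it was 1 without a filter, 8 with DESeq2, 13 with limma, 0 with lane as a covariate, 0 within lane 1, 0 with tissue marker scores, and 0 to 11 with each tumor left out. Of all AE17 genes, lane as a covariate left 0 higher and 1 lower, lane 1 alone 10 and 4, and marker scores 3 and 12. For the interaction, against 20, the number of collagens called was 2 with lane as a covariate and 18 to 22 with each tumor left out. Calls of the interaction near the threshold were those of Col11a2, lost in 13 of 32 such fits, and Col8a2, lost in 9. Between the models at the IPL site, against 29, it was 16 with all 32 tumors and lane and 26 to 30 with each tumor left out. Without AB1 IPL tumors 3 and 4, Col10a1 fell to -0.0153 ± 0.62 (edgeR adjusted p = 0.99). At the SC site, against 27, the number called was 18 with all 32 tumors and lane, 22 with 10 counts in every tumor and 23 to 26 with each tumor left out. Where lane or marker scores ended calls, the cause was not tested.

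The replicate numbers did not pair the tumors: the deviations of same-numbered tumors from their group means correlated by -0.29 to -0.01 between the AB1 sites and by -0.23 to 0.27 between the AE17 sites, and 0 and 3 of 8 tumors correlated best with their own number. With the replicate block, 17 collagens were called in AB1 (17 higher), 2 in AE17 and 16 in the interaction. Over all genes, the block left 1080 higher and 1183 lower of 14645 in AB1, and 324 and 337 of 14668 in AE17. In the interaction 1254 of 15681 genes were larger and 1144 smaller in AB1.

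At these depths, genes under about 0.2 CPM, such as Col19a1 and Col26a1, rest on few counts.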
